A study of Mus musculus with 28 samples.

Results

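Reln, Lrp8, Vldlr and Dab1 encode the secreted protein Reelin, its pair of receptors and the adaptor inside the receiving cell, and they are 4 of the 41549 genes counted in nuclear RNA of sorted nuclei from the motor cortex of mice. They were selected on measured values, namely their levels in the 4 groups of the study, and then taken by gene name, so their own differences between groups are given below as a description and without a test. They enter the fits over all genes, but no p-value of theirs is given, and test results are reported only for genes outside these 4. The other genes of the Reelin pathway come from a list of 60, chosen for their role in ligand binding, cleavage, signalling or turnover. This list and the cell type lists below were drawn up with earlier results of these data known. Their counts beside the share over all genes are therefore not independent of the data.

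Reelin is a large glycoprotein that neurons secrete into the extracellular matrix. It binds the lipoprotein receptors Lrp8 (also called ApoER2) and Vldlr, and the clustered receptors lead Src family kinases such as Fyn to phosphorylate the adaptor Dab1, which passes the signal on to Crk proteins, phosphoinositide 3-kinase and Akt. In the developing cortex Reelin comes from Cajal-Retzius cells and guides the layering of migrating neurons, and in the adult cortex it is made by subsets of GABAergic interneurons and acts on synapses of the cells that carry the receptors.

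The study concerns Cas9 carried by an adeno-associated virus (AAV) for lowering microRNAs in the brain. Each of 7 mice, numbered 17 to 23, received the vector AAV-Cas9-miR-124-empty in the left motor cortex and AAV-Cas9-miR-124-g4 in the right, shortened to empty and g4 below. What g4 means is left unexplained in the labels. Nuclei of tissue fixed with paraformaldehyde were labelled with an antibody against HA, a peptide tag, and split by flow sorting. Those with the tag (HA-positive) are the Cas9-positive nuclei of the labels, and those without it (HA-negative) the Cas9-negative ones. Both vectors and both fractions together gave 4 groups of 7 libraries, 28 in all. All of them come from hemispheres that received a Cas9 vector, and neither an untreated animal nor a vector without Cas9 is among them. The vector and the hemisphere it went into cannot be told apart, HA-negative nuclei came from the same injected tissue, and strain, age and the promoter that drives Cas9 are not given in the labels.

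In the GRCm38 assembly Reln spans chromosome 5 from 21884454 to 22344702 on the minus strand, and its annotated exons together cover 23738 bases. Lrp8 (chromosome 4, 107802261 to 107876840) and Dab1 (chromosome 4, 103619359 to 104744844) lie on the plus strand, with 10514 and 7908 exonic bases. Vldlr (chromosome 19, 27216484 to 27254231, plus strand) has 10068 exonic bases. Of the annotated genes that overlap them, the antisense gene Lrp8os2 had 2 counts over all libraries, and those overlapping Reln that were in the tables had 0.

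Because both vector names contain miR-124, a microRNA abundant in neurons, the longest annotated 3′ untranslated region (3′ UTR) of each gene was searched on the transcript strand for the miR-124 site GTGCCTT, its variant TGCCTTA and the joined form GTGCCTTA, which holds both. Reln (1022 bases), Dab1 (3350 bases) and Lrp8 (4532 bases) held no match, and Vldlr (5094 bases) held 1 match to GTGCCTT. Among 3′ UTRs within 10% of the same length, 17.7% held a match for Reln's length, 40.4% for that of Dab1, 51.3% for that of Lrp8 and 54.5% for that of Vldlr. Over all 21769 3′ UTRs the share was 20.0%. The Vldlr match is shown here with its flanks, since it is the only one in the 4 genes; it starts at base 1096 of the 3′ UTR counted from the first base of the stop codon, and capitals mark the matching bases (GRCm38, chr19:27250222-27250251, plus strand).
Vldlr 3′ UTR site: gtcaaagacaaGTGCCTTctatggcatggg
A match of letters is a description of the sequence and says nothing about binding in these nuclei.

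Libraries held 248612 to 902944 counts in total, with 8687 to 13668 genes detected. The lowest gene numbers were in the empty HA-positive group, where 3 libraries (mice 17, 21 and 22) had under 10000, as did the g4 HA-positive library of mouse 18. At this depth Reln had 32 to 173 counts per library, Dab1 16 to 66, Lrp8 11 to 47 and Vldlr 9 to 93. Levels are given in CPM (counts scaled per 1000000 of the library). Counting alone gives Lrp8 a standard deviation (SD) of 11.3 CPM in g4 HA-positive nuclei, beside a measured SD of 10.7, and of 12.8 CPM in empty HA-positive nuclei, beside a measured 32.7. In empty HA-positive nuclei the measured SD was also above the counting SD for Vldlr (49.8 against 14.5 CPM), Reln (97.6 against 28.3) and Dab1 (20.6 against 14.1). The glutamate transporter Slc17a7, a marker of cortical excitatory neurons, was present in all 28 libraries. The g4 HA-positive library of mouse 19 stood apart, with a summed level of 354 CPM over 9 microglia genes and 1418 CPM over 10 oligodendrocyte genes, where the other 6 libraries of its group reached at most 48.9 and 207 CPM. Results that rest on it are given with and without it.

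Reln, the ligand, was higher in HA-positive than in HA-negative nuclei with the empty vector, and close to the HA-negative level with g4. In empty HA-positive nuclei the lowest library had 129 CPM, the median 300.2 and the highest 414. In g4 HA-positive nuclei the values were 129, 180.1 and 206 CPM. Empty HA-negative nuclei had 117, 153 and 208 CPM, and g4 HA-negative nuclei 87.0, 158 and 215. All but 1 of the empty HA-positive libraries lay above every HA-negative library of the same vector, the exception being mouse 17, and the groups therefore overlapped. The group means were 296 ± 97.6 CPM (SD, n = 7) in empty HA-positive, 172 ± 28.6 in g4 HA-positive, 161 ± 32.5 in empty HA-negative and 149 ± 43.8 in g4 HA-negative nuclei. In this order the last 3 groups differ from their neighbours by less than their SD. In bulk RNA of many nuclei, fewer cells of a type and less RNA per cell cannot be told apart.

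**Figure D1:**
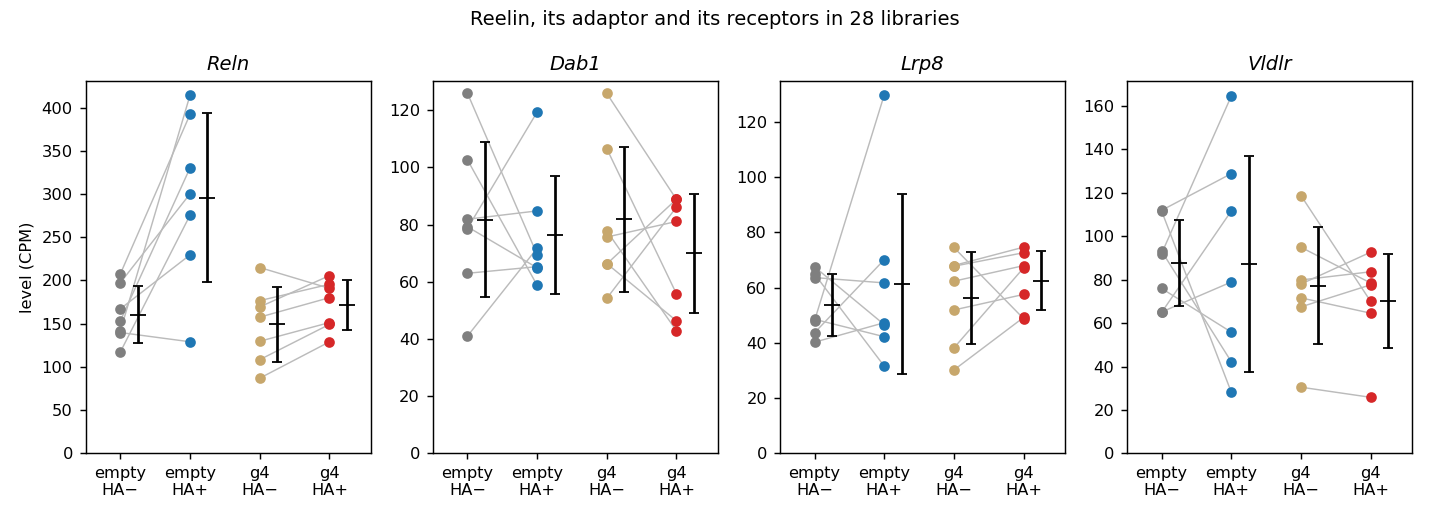
Levels of Reln, Dab1, Lrp8 and Vldlr in CPM (vertical axis, scaled with TMM factors) in the 4 groups; each point is a library, grey lines join the fractions of 1 mouse within a vector, and the bar beside each group is its mean ± SD (n = 7). For Reln 6 of 7 empty HA-positive libraries lie above the highest empty HA-negative library (208 CPM), while the other genes show no such separation.

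With the empty vector the Reln level of HA-positive nuclei was 1.85 times that of HA-negative nuclei, a log2 fold change of 0.89 ± 0.19 (standard error, SE). The difference was positive in 6 of 7 mice, with log2 differences from mouse 17 to 23 of -0.11, 0.46, 1.54, 1.22, 0.91, 0.60 and 1.10. With g4 the fraction difference was 0.19 ± 0.17, also positive in 6 of 7 mice, the exception being mouse 22. Between the vectors, Reln in HA-positive nuclei was 0.573 times as high with g4 as with empty, a log2 fold change of -0.80 ± 0.20. This difference was negative in 6 of 7 mice and ran from -1.68 in mouse 19 to 0.23 in mouse 17, which had the lowest Reln level of the empty HA-positive group. In HA-negative nuclei the vector difference was -0.11 ± 0.17, negative in 4 of 7 mice. The vector difference in HA-positive nuclei minus that in HA-negative nuclei was -0.68 ± 0.26 on the log2 scale. The first and the third of these comparisons share the 7 empty HA-positive libraries, so their values are not independent of each other.

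Leaving out the libraries that stood apart did not turn any of these directions. Without mouse 19 the g4 HA-positive mean was 179 ± 23.6 CPM (SD, n = 6) and the vector difference -0.74 ± 0.20. Without the libraries under 10000 genes the empty HA-positive mean was 312 ± 79.4 CPM (n = 4), the g4 HA-positive mean 175 ± 29.4 (n = 6) and the vector difference -0.82 ± 0.18.

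The receptor genes had no such pattern. Lrp8 in empty HA-positive nuclei ran from 31.6 over a median of 47.3 to 129.7 CPM, and in g4 HA-positive nuclei from 48.8 over 67.1 to 74.6. In empty HA-negative nuclei its values were 40.3, 48.5 and 67.5 CPM, and in g4 HA-negative nuclei 30.2, 62.3 and 74.5. The highest value, of mouse 21, stood far from the rest of its group, and all groups overlapped. Mean levels were 61.3 ± 32.7 CPM in empty HA-positive, 62.6 ± 10.7 in g4 HA-positive, 53.8 ± 11.2 in empty HA-negative and 56.1 ± 16.7 in g4 HA-negative nuclei (SD, n = 7), and every difference between groups was smaller than the SD. The Lrp8 log2 fold changes between fractions were 0.21 ± 0.30 with empty and 0.17 ± 0.24 with g4, and those between vectors 0.01 ± 0.31 in HA-positive and 0.04 ± 0.24 in HA-negative nuclei. The 95% interval of the vector difference in HA-positive nuclei (normal approximation to the SE) was -0.59 to 0.60, which leaves room for a difference in either direction. Lrp8 was higher in HA-positive nuclei in 3 of 7 mice with empty and in 6 of 7 with g4. Without the libraries under 10000 genes its empty HA-positive mean was 51.4 ± 17.6 CPM (SD, n = 4), below the empty HA-negative mean of 53.8.

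Vldlr, the other receptor and the gene with the miR-124 match shown above, had the widest spread of the 4 relative to its mean in empty HA-positive nuclei. Its lowest library there had 28.2 CPM, the median 78.9 and the highest 164.5, and in g4 HA-positive nuclei the values were 25.8, 77.6 and 92.7. In empty HA-negative nuclei they were 64.9, 92.0 and 112 CPM, and in g4 HA-negative nuclei 30.5, 78.0 and 119. The medians of both HA-positive groups were close to each other, and all groups overlapped. Group means were 87.2 ± 49.8 CPM in empty HA-positive, 70.4 ± 21.6 in g4 HA-positive, 87.8 ± 19.9 in empty HA-negative and 77.3 ± 26.9 in g4 HA-negative nuclei (SD, n = 7). In mouse 18 both g4 libraries were the lowest of their groups, at 25.8 and 30.5 CPM. The Vldlr log2 fold changes were 0.03 ± 0.29 and -0.16 ± 0.24 between fractions, with empty and g4. Between vectors they were -0.35 ± 0.32 in HA-positive and -0.16 ± 0.21 in HA-negative nuclei. Within mice the vector difference in HA-positive nuclei ran from -2.07 to 1.28 and was negative in 4 of 7.

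Dab1, the adaptor, was at like levels in all 4 groups. Its lowest, median and highest libraries had 58.8, 69.5 and 119 CPM in empty HA-positive nuclei and 42.8, 81.1 and 88.9 in g4 HA-positive nuclei. The corresponding values were 41.0, 79.2 and 126 CPM in empty HA-negative nuclei and 54.2, 75.6 and 126 in g4 HA-negative nuclei. Means were 76.3 ± 20.6, 70.0 ± 20.8, 81.7 ± 27.1 and 81.8 ± 25.3 CPM in that order (SD, n = 7), so that all 4 lay within 1 SD of each other. The Dab1 log2 fold changes were -0.07 ± 0.25 and -0.25 ± 0.23 between fractions, with empty and g4, and -0.16 ± 0.26 and 0.01 ± 0.21 between vectors, in HA-positive and HA-negative nuclei. The signs were mixed within mice, with 3 or 4 of 7 higher in each of these comparisons.

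**Figure D2:**
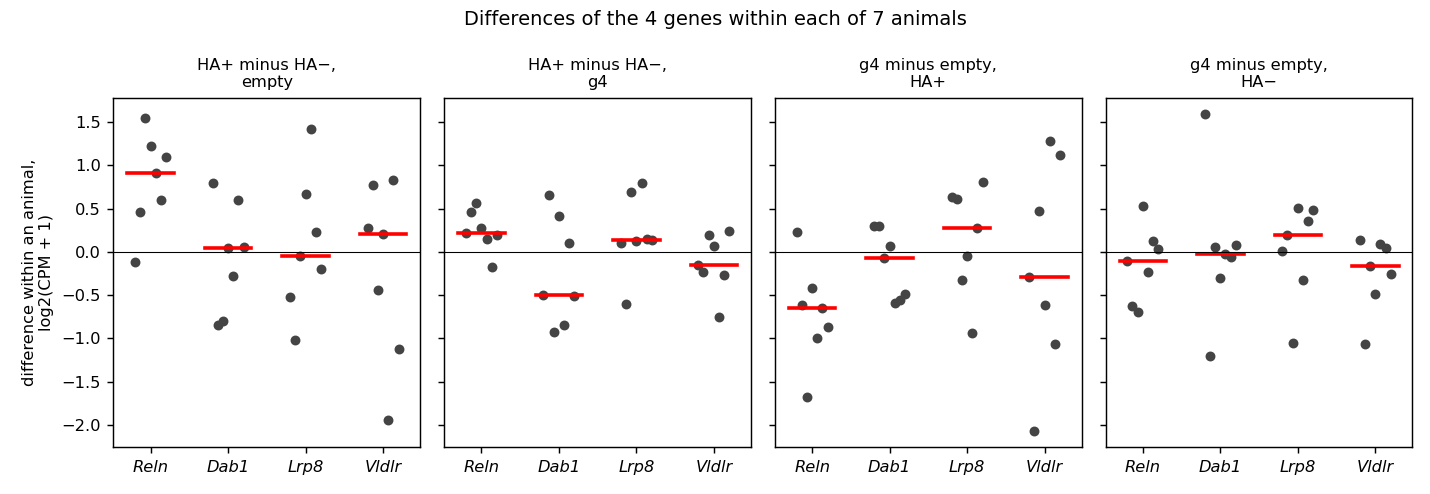
Differences of log2(CPM + 1) within each of the 7 mice (points) and their median (red line) for Reln, Dab1, Lrp8 and Vldlr; the panels show HA-positive minus HA-negative nuclei with empty and with g4, and g4 minus empty in HA-positive and in HA-negative nuclei. The median for Reln was 0.91 between fractions with empty and -0.65 between vectors in HA-positive nuclei, with 6 of 7 mice on the same side of 0 in each.

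In the fit over all genes, edgeR's quasi-likelihood test with Benjamini-Hochberg adjustment called a gene at an adjusted p under 0.05. All 4 genes had enough counts to enter each of the 5 fits. In HA-positive against HA-negative nuclei with empty, 3.5% of 5538 tested genes were called higher and 3.5% lower (7.01% in all). With g4, 3.32% of 6264 genes were called higher and 3.08% lower (6.4% in all). Between vectors 0.0599% of 5011 genes were called in HA-positive nuclei (0.02% higher and 0.0399% lower) and 0% of 6262 in HA-negative nuclei. For the difference of vector effects 0% of 7197 genes were called. At an unadjusted p under 0.05 edgeR had 236 genes in the HA-negative vector comparison and 359 in the difference, and DESeq2 called 1 gene and 0 genes at its adjusted threshold. The choice of the 4 genes used these same levels, so no call of theirs is read from these fits.

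Set per kilobase of annotated exon, to allow for the unequal lengths of the genes, the order of the 4 depended on the group. In empty HA-positive nuclei Reln stood first, at 12.5 ± 4.11 CPM per kilobase (SD, n = 7), then Dab1 at 9.65 ± 2.60, Vldlr at 8.66 ± 4.94 and Lrp8 at 5.83 ± 3.11. Reln exceeded Dab1 in 5 of 7 libraries and Lrp8 in 7 of 7, but Vldlr in only 3 of 7, so the first place over Vldlr rests on the size of the mean and not on most libraries. In g4 HA-positive nuclei Dab1 led with 8.85 ± 2.63 CPM per kilobase, followed by Reln at 7.23 ± 1.21, Vldlr at 6.99 ± 2.15 and Lrp8 at 5.95 ± 1.02. In empty HA-negative nuclei the per-kilobase order was Dab1 at 10.3 ± 3.43, Vldlr at 8.72 ± 1.98, Reln at 6.77 ± 1.37 and Lrp8 at 5.12 ± 1.07. In g4 HA-negative nuclei it was Dab1 at 10.3 ± 3.20, Vldlr at 7.68 ± 2.68, Reln at 6.28 ± 1.84 and Lrp8 at 5.34 ± 1.59. Lrp8 had the lowest mean per kilobase in all 4 groups. Dab1 stood above Reln in 6 of 7 empty HA-negative libraries and in 7 of 7 with g4. Neighbours in each order differed by less than the larger of their SDs, with the exception of Reln and Lrp8 in empty HA-negative nuclei, where Reln was higher in 5 of 7 libraries. Reads of nuclear RNA that fall in introns, and how they were counted, are not described in the labels, and an exon length cannot allow for them. The length used joins all annotated exons of a gene, and no other length was tried, so the order between genes is a rough one.

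Interneuron genes as a list were higher in HA-positive nuclei with both vectors. The log2 difference of Reln was larger with empty (0.89) than with g4 (0.19), and positive in 6 of 7 mice with each. The list held 18 interneuron genes, among them those for the GABA synthesis enzymes Gad1 and Gad2, the peptides Npy and Sst, and Ndnf and Lamp5, which mark interneurons of the neurogliaform family. Its summed level was 2812 CPM (range 2502 to 3353) in empty HA-positive, 2294 (1505 to 2861) in g4 HA-positive, 1060 (862 to 1138) in empty HA-negative and 1001 (867 to 1103) in g4 HA-negative libraries. With empty, all 14 tested genes had higher levels in HA-positive nuclei and 6 were called higher, as were 3.5% of all tested genes. The median log2 fold change was 0.87 over the 14, against 0.01 over all genes tested. With g4, 13 of 14 had higher levels and 7 were called higher, as were 3.32% of all (median 0.70, against 0.01). For example, with empty Sst rose by 2.22 ± 0.19 (adjusted p 2.55e-09), Npy by 2.12 ± 0.26 (8.82e-07), Gad1 by 1.83 ± 0.18 (8.15e-08) and Gad2 by 1.06 ± 0.15 (1.04e-05) on the log2 scale. Lamp5 did not pass (0.68 ± 0.40, adjusted p 0.383). Ndnf was not tested there for its low counts, with 36.9 ± 22.7 CPM in empty HA-positive and 16.0 ± 8.64 in empty HA-negative nuclei. A smaller difference with g4 was not particular to Reln. Log2 fold changes with empty and g4 were 0.99 and 0.32 for Kit, 0.75 and -0.37 for Nos1, and 0.68 and 0.18 for Lamp5, none called. Id2 (0.04 and 0.40) and Vip (0.35 and 1.325) went the other way, and Vip was called with g4.

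The ratio of Reln counts to the sum of Gad1 and Gad2 counts was lower in HA-positive than in HA-negative nuclei. It was 0.250 ± 0.100 in empty HA-positive and 0.181 ± 0.0480 in g4 HA-positive libraries, against 0.347 ± 0.0507 and 0.359 ± 0.0739 in the HA-negative ones (SD, n = 7). The range in g4 HA-positive libraries was 0.106 to 0.241, below every g4 HA-negative library (0.255 to 0.472). Between these groups Gad1 rose by 1.675 and Gad2 by 0.66 on the log2 scale, beside 0.19 for Reln. Any gene that rises less than the denominator has a lower ratio, and the share of all genes that separate in this way was not computed. With empty the ranges overlapped, at 0.0656 to 0.364 in HA-positive and 0.276 to 0.412 in HA-negative nuclei. The ratio to Sst was 0.726 ± 0.256 and 0.475 ± 0.0866 in empty and g4 HA-positive libraries, against 1.88 ± 0.838 and 1.96 ± 1.02 in HA-negative ones, and that to Npy 1.48 ± 0.765 and 1.06 ± 0.279, against 3.78 ± 1.41 and 3.68 ± 1.74. The mean ratio to Lamp5 was not lower, at 8.10 ± 7.42 and 3.53 ± 1.47 in HA-positive against 3.57 ± 1.77 and 3.23 ± 1.53 in HA-negative libraries, and from summed counts it was 3.23 and 3.06 against 3.26 and 3.12. In the ratio of Reln to the sum of Gad1 and Gad2, mouse 17 again stood lowest in the empty HA-positive group, at 0.0656. In this library the interneuron sum was the highest of its group, at 3353 CPM, where Reln was the lowest, at 129 CPM.

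Between vectors in HA-positive nuclei, 13 of 16 tested interneuron genes had lower levels with g4 and 0 passed the test (median -0.40, against -0.01 over all genes). Gad2 went from 527 ± 103 to 338 ± 84.3 CPM (log2 fold change -0.66 ± 0.16, adjusted p 0.162). Slc32a1, the vesicular GABA transporter, had -0.66 ± 0.23 (0.619). Log2 fold changes were -0.20 ± 0.19 for Gad1, -0.20 ± 0.17 for Sst, -0.35 ± 0.21 for Npy, -0.50 ± 0.44 for Lamp5 and -0.46 ± 0.43 for Ndnf, with adjusted p of 0.773 to 0.902. The 3 with higher levels were Id2 (0.82 ± 0.40, adjusted p 0.736), Vip (0.76 ± 0.48, 0.81) and Cck (0.07 ± 0.35, 0.983). Without mouse 19 the summed interneuron level of g4 HA-positive nuclei was 2426 CPM. The summed level of 10 astrocyte genes was 899 CPM (615 to 1385) in empty and 1433 (920 to 2429) in g4 HA-positive libraries. The summed level of 14 excitatory neuron genes was 1395 CPM (993 to 1655) and 1600 (1205 to 1903). The part of these lists in the lower Reln level with g4 was not tested.

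**Figure D3:**
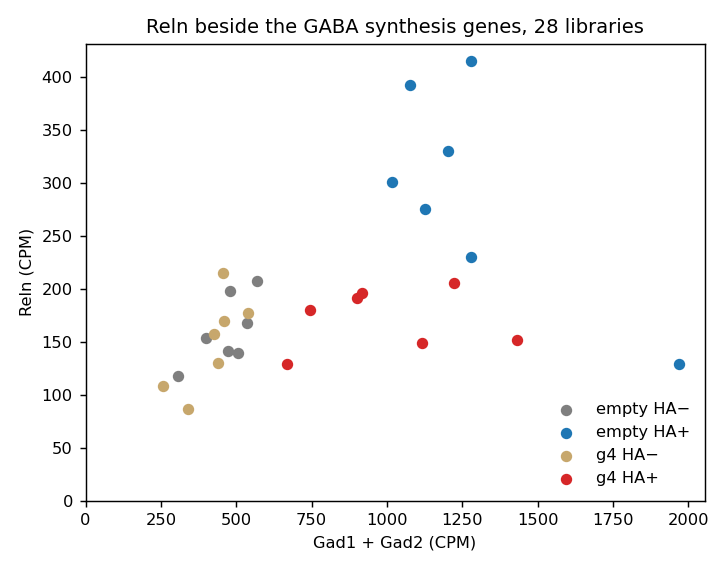
Reln level (vertical axis, CPM) against the summed level of Gad1 and Gad2 (horizontal axis, CPM) in the 28 libraries, coloured by group. The empty HA-positive libraries reach the highest Reln levels, up to 414 CPM, except that of mouse 17, which has the highest Gad1 and Gad2 sum and 129 CPM of Reln.

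Markers of Cajal-Retzius cells, the Reelin source of the developing cortex, were at or near 0. None of the 7 genes in that list had enough counts to be tested. Their summed level was 7.94 CPM (range 0 to 24.7) in empty HA-positive libraries and 1.77 CPM in those with g4, and it was 2.58 CPM with empty and 2.41 with g4 in HA-negative libraries. In the empty HA-positive group, whose sum was the highest, Trp73, Lhx1 and Lhx5 were at 0 counts and the other 4 genes of the list made up the sum.

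Beyond the 4 genes, members of the Reelin pathway passed the test between the fractions and not between the vectors. With empty, 39 of the 60 listed genes had enough counts, and 8 of them passed the test, 2 higher and 6 lower in HA-positive nuclei, where 7.01% of all tested genes passed. Their median log2 fold change was -0.22, against 0.01 over all genes tested. With g4, 43 were tested and 6 passed, 1 higher and 5 lower, where 6.4% of all passed, with a median of 0.02 against 0.01. Of these 6, only Efnb3 passed with library-size scaling in place of TMM, and 3 (Efnb2, Efnb3 and Lrp1b) passed without the libraries under 10000 genes. With the g4 HA-positive library of mouse 19 left out 8 pathway genes passed. Between vectors 0 of 38 passed in HA-positive and 0 of 42 in HA-negative nuclei, and 0 of 46 passed for the difference of vector effects. DESeq2 and limma voom likewise called 0 of them in these last 3 comparisons. At an unadjusted p under 0.05 in edgeR's test, 5 of 38, 3 of 42 and 7 of 46 lay below, beside 335 of 5011, 236 of 6262 and 359 of 7197 genes over all.

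Among the other ligands of the Reelin receptors and their chaperone, 3 of 5 tested genes were called lower in HA-positive nuclei with empty. This held for 3.5% of all genes. With g4, 1 of 5 was called lower (3.08% of all). Apoe, the lipid carrier of the brain that glia secrete, fell from 111 ± 45.4 CPM in empty HA-negative to 35.3 ± 11.8 in empty HA-positive nuclei (SD, n = 7). Its log2 fold change was -1.63 ± 0.30 (adjusted p 0.000377), with no overlap of the groups (1.84% of tested genes were lower without overlap) and lower levels in 7 of 7 mice (5.2% of tested genes). Selenop, the selenium carrier that Lrp8 takes up, fell from 66.9 ± 12.4 to 8.12 ± 12.3 CPM (-2.89 ± 0.52, adjusted p 0.000315). Lrpap1, a chaperone that keeps receptors of this family from binding ligand too early, fell from 89.7 ± 24.6 to 36.5 ± 18.2 CPM (-1.26 ± 0.34, adjusted p 0.0191), at 0 in mouse 17, and its call was lost with the mouse as a replicate block (adjusted p 0.0542) and without mouse 18 (0.0906). With g4, Selenop again fell, from 78.9 ± 21.8 to 14.7 ± 21.2 CPM (-2.19 ± 0.57, adjusted p 0.0323). This call was lost without mouse 17, 18, 20, 21 or 23 (adjusted p 0.0649 to 0.103), while without the g4 HA-positive library of mouse 19 the change was -3.29 ± 0.41 (adjusted p 3.71e-07). Apoe (-0.65 ± 0.26, adjusted p 0.17) and Lrpap1 (0.11 ± 0.24, 0.871) did not pass with g4. Spon1, a matrix protein that binds Lrp8, did not pass with either vector (-1.33 ± 0.49, adjusted p 0.113, with empty). Clu, another lipid-binding ligand, did not pass either (-0.57 ± 0.29, adjusted p 0.278, with empty and 0.22 ± 0.25, 0.751, with g4).

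Among genes for cleavage of Reelin, the proteases were mostly too low to test. Of 7 listed, 1 was tested between fractions, Serpine2, which encodes an inhibitor of serine proteases and not a protease. It fell from 80.6 ± 23.3 to 26.8 ± 24.8 CPM with empty (-1.58 ± 0.43, adjusted p 0.0201) and from 71.6 ± 28.9 to 36.6 ± 17.7 with g4 (-0.94 ± 0.29, adjusted p 0.0436). The call with empty was lost without mouse 19, 20 or 22 (adjusted p 0.0566 to 0.0922), and that with g4 without mouse 17, 20, 21, 22 or 23 (0.0502 to 0.278). Adamts3, the main protease that cuts Reelin near its start, had 22.0 ± 21.3 CPM in empty HA-positive, 13.0 ± 11.7 in g4 HA-positive, 25.6 ± 13.2 in empty HA-negative and 18.2 ± 13.1 in g4 HA-negative nuclei. It was at 0 in 1 library of each group but empty HA-negative.

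The co-receptor and receptor-relative list held 11 genes, of which 6 were tested between fractions. Efnb3, an ephrin of the family that can join the Reelin receptor complex, fell from 54.3 ± 12.7 to 6.93 ± 7.43 CPM with empty (-2.98 ± 0.52, adjusted p 0.000246). With g4 it fell from 53.1 ± 11.7 to 12.8 ± 16.3 CPM (-1.87 ± 0.45, adjusted p 0.0105), and by more without the g4 HA-positive library of mouse 19 (-2.86 ± 0.42), while the call was lost without mouse 21 or 22 (0.0615 and 0.0536). Lrp1b, a large endocytic receptor related to Lrp8 and Vldlr, fell from 313 ± 48.4 to 142 ± 42.8 CPM with empty (-1.12 ± 0.18, adjusted p 8.36e-05). With g4 the fall was from 279 ± 36.1 to 199.9 ± 53.9 CPM (-0.48 ± 0.15, adjusted p 0.0484), a call lost without mouse 17, 20, 21, 22 or 23 (0.0604 to 0.274). Efnb2, another ephrin, fell with g4 from 55.2 ± 8.99 to 28.4 ± 12.6 CPM (-0.97 ± 0.29, adjusted p 0.0345; lost without mouse 17, 19, 20, 21 or 22, 0.0636 to 0.133) and had -0.69 ± 0.37 (adjusted p 0.317) with empty. Whether these falls differ between the vectors is given by the difference of vector effects, which passed for none of the genes named here. Lrp1, the close relative that clears many of the same ligands, had -0.21 ± 0.14 (adjusted p 0.425) with empty and -0.27 ± 0.14 (0.299) with g4.

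Oligodendrocyte and microglia markers were lower in HA-positive nuclei beside these falls. For astrocyte genes 0 passed the test of the difference of vector effects. With empty, all 7 tested oligodendrocyte genes and all 5 tested microglia genes were called lower. Of 5 tested astrocyte genes 1 was called lower, beside 3.5% of all genes. With g4, 6 of 8 oligodendrocyte, 3 of 5 microglia and 0 of 6 astrocyte genes were called lower, beside 3.08% of all. The oligodendrocyte sum was 98.2 CPM (53.8 to 127) in empty HA-positive and 1663 (1139 to 1919) in empty HA-negative libraries, and the microglia sum 26.9 (7.17 to 46.1) and 419 (258 to 608). In that group the microglia genes Cx3cr1, P2ry12, C1qa and C1qc were at 0 counts. The astrocyte sum was 899 CPM in HA-positive and 1347 (1131 to 1509) in HA-negative nuclei with empty, and 1433 (1440.0 without mouse 19) and 1414 CPM with g4. In g4 HA-positive nuclei the oligodendrocyte sum was 334 CPM (153 without mouse 19) against 1765 in HA-negative nuclei, and the microglia sum 72.1 (25.1 without mouse 19) against 502. Some excitatory neuron genes were also called lower, 3 of 12 tested with empty (3.5% of all genes) and 2 of 13 with g4 (3.08%). None of them was called higher. The excitatory sum with empty was 1395 CPM in HA-positive and 1908 (1656 to 2228) in HA-negative libraries, and with g4 1600 and 1959. The part of these cell types in the lower levels of Apoe, Selenop, Serpine2, Lrp1b and the ephrins was not tested.

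Inside the receiving cell, 18 of 25 listed signalling genes were tested with empty and 2 passed, both higher, where 3.5% of all genes were called higher and 7.01% in all. With g4, 1 of 22 passed, also higher (3.32% of all genes). Akt1, a kinase downstream of phosphoinositide 3-kinase, had 75.1 ± 43.0 CPM in HA-positive and 33.1 ± 8.43 in HA-negative nuclei with empty (1.22 ± 0.33, adjusted p 0.0207). With g4 the levels were 60.2 ± 20.4 and 30.6 ± 10.3 CPM (0.96 ± 0.30, adjusted p 0.0446), higher in 7 of 7 mice and in 6 of 7 with empty. The call with empty was lost with the mouse as a replicate block (adjusted p 0.0792), without the libraries under 10000 genes (0.0654) and without mouse 19, 21 or 22 (0.0639 to 0.148). That with g4 was lost without mouse 17, 20, 21, 22 or 23 (0.0656 to 0.168), with limma voom (0.0884) and with library-size scaling (0.0862). Pafah1b2, a catalytic subunit of the enzyme whose regulatory subunit is Lis1, rose from 104 ± 21.7 to 163 ± 35.1 CPM with empty (0.66 ± 0.19, adjusted p 0.0334). Its call was lost without each mouse but 17 (0.0537 to 0.141), without a filter on low counts, without the libraries under 10000 genes and with library-size scaling, and it had 0.04 ± 0.16 with g4 (adjusted p 0.931). Pafah1b1, the gene of Lis1 itself, had 373 ± 80.4 against 322 ± 50.7 CPM with empty (0.23 ± 0.15, adjusted p 0.422).

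The steps nearest to Dab1 did not pass in any comparison. Fyn, the kinase that phosphorylates Dab1, had 52.3 ± 28.6 CPM in empty HA-positive, 45.1 ± 20.7 in g4 HA-positive, 57.5 ± 22.6 in empty HA-negative and 39.7 ± 6.49 in g4 HA-negative nuclei. Its log2 fold change between fractions with empty was -0.12 ± 0.34 (adjusted p 0.903). Crk and Crkl, the proteins that bind phosphorylated Dab1, had 0.36 ± 0.23 and 0.63 ± 0.45 between fractions with empty (adjusted p 0.43 and 0.489). Rapgef1, the exchange factor they carry, had 0.52 ± 0.29 (0.34). Cdk5, a kinase that acts beside the Reelin signal in neuronal positioning, had -0.21 ± 0.51 (0.882), and its activator Cdk5r1 -0.20 ± 0.21 (0.684).

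In the turnover and scaffold list 9 of 10 genes were tested and 0 passed in each of the 5 comparisons. Dlg4, the postsynaptic scaffold PSD-95 to which Lrp8 can be tied, had 166 ± 30.9 against 214 ± 32.4 CPM with empty (-0.35 ± 0.16, adjusted p 0.229). Snx17, which recycles the receptors from endosomes, had -0.09 ± 0.52 with empty (0.949) and 0.65 ± 0.39 with g4 (0.406). Mylip, the ubiquitin ligase that degrades Lrp8 and Vldlr, had too few counts to be tested anywhere, with 18 to 29 counts per group of 7 libraries.

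**Figure D4:**
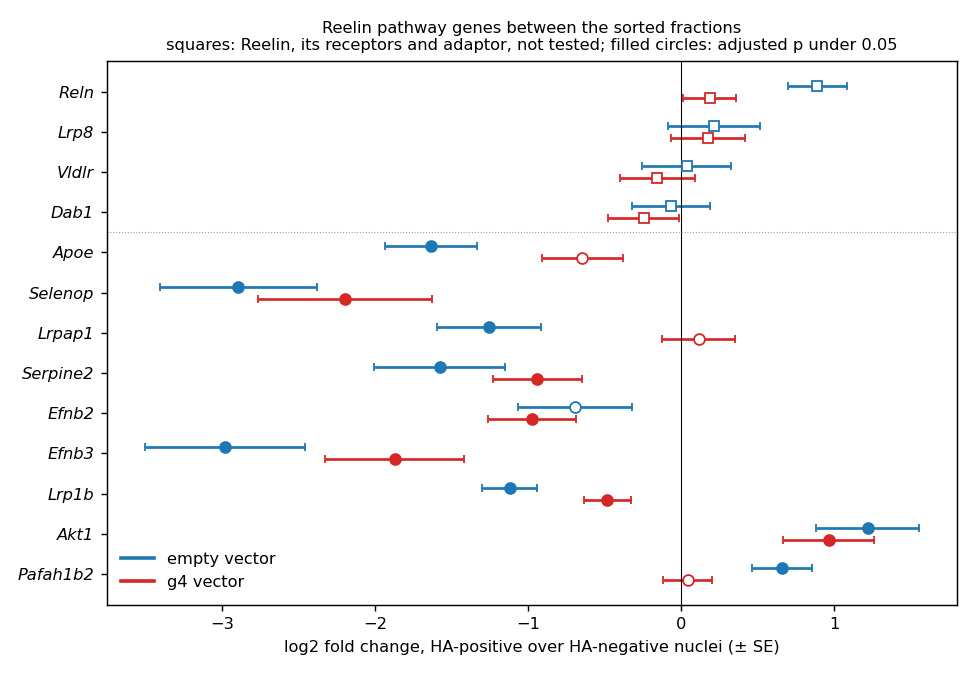
Log2 fold change of HA-positive over HA-negative nuclei (horizontal axis, ± SE) with the empty vector (blue) and the g4 vector (red) for Reln, its receptors and Dab1 (squares) and for the pathway genes called in a fraction comparison (circles, filled where the adjusted p is under 0.05). Selenop and Efnb3 lie furthest to the left, at -2.89 and -2.98 with empty, and Akt1 furthest to the right, at 1.22.

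With g4 against empty in HA-positive nuclei, 24 of 38 tested pathway genes had higher levels (median log2 fold change 0.13, against -0.01 over all genes) and 0 passed. The integrin subunit Itgb1, which pairs with the alpha-3 subunit that Reelin can bind, had 59.2 ± 15.4 CPM with g4 and 21.7 ± 13.9 with empty. Its groups did not overlap, as for 0.14% of the 5011 tested genes in this direction, and it was higher with g4 in 7 of 7 mice, as for 1.42%. The margin was narrow, with 38.6 CPM as the lowest value with g4 and 38.4 as the highest with empty, both in mouse 23. The empty group held 58 Itgb1 counts in all, 0 to 17 per library. The Itgb1 log2 fold change of 1.44 ± 0.44 had an adjusted p of 0.457 and was 1.51 ± 0.47 without the g4 HA-positive library of mouse 19 (0.453). In HA-negative nuclei Itgb1 had 36.0 ± 16.0 and 37.1 ± 16.8 CPM. Apoe had 59.7 ± 26.5 with g4 and 35.3 ± 11.8 with empty in HA-positive nuclei (0.75 ± 0.36, adjusted p 0.736), and was higher in 7 of 7 mice. Lrpap1 had 66.2 ± 15.6 and 36.5 ± 18.2 CPM (0.83 ± 0.38, adjusted p 0.73), and Spon1 65.6 ± 20.6 and 27.7 ± 32.5 (1.29 ± 0.50, 0.703). Without that library of mouse 19 these 3 had log2 fold changes of 0.66 ± 0.39, 0.77 ± 0.41 and 1.20 ± 0.53, with adjusted p of 0.763 to 0.864.

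Across the 28 libraries the 4 genes did not rise and fall together. Pearson's r of log2(CPM + 1) between Reln and the others was -0.10 for Dab1, 0.25 for Lrp8 and 0.02 for Vldlr. The largest among the 4 was -0.40, between Lrp8 and Vldlr, which was -0.39 after the mean of each group was taken off. Reln had an r of 0.64 with Gad2 (0.16 within groups), 0.58 with Sst (0.33), 0.56 with Npy (0.18) and 0.51 with Gad1 (0.07). With Ndnf it was 0.11 (-0.28) and with Lamp5 -0.07 (-0.19). Libraries of a group share a vector and a fraction, and all libraries share differences in depth, so these values are descriptions.

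Among 8337 genes with a mean of at least 10 CPM, those most like Reln by r over the 28 libraries were Ifit2 (0.71), Lypd6 (0.68), Cntnap5c (0.65), Pitpnc1 (0.65) and Wdr24 (0.64). Within groups their r fell to 0.45 to 0.58, and by that r they ranked 243, 63, 109, 148 and 364 in the same order. Ifit2 had 28.7 ± 19.2 CPM in empty HA-positive, 8.12 ± 4.64 in g4 HA-positive, 5.76 ± 6.37 in empty HA-negative and 5.52 ± 5.40 in g4 HA-negative nuclei (SD, n = 7). Lypd6 had 36.5 ± 22.5, 27.7 ± 9.43, 11.4 ± 9.09 and 8.72 ± 4.39 CPM in the same order. For Dab1 the nearest were Ncdn (0.67), Icam5 (0.67) and Lrrk2 (0.56), for Lrp8 Nacad (0.67), Tmem70 (0.62) and Wdr11 (0.61), and for Vldlr Dusp14 (0.78), Nptn (0.76) and Thumpd3 (0.74). Within groups these 9 values were 0.55 to 0.81. The genes were picked as the highest of 8337 in these same libraries, so the values within groups are no separate support for a likeness.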

How the data were processed

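Gene counts were deposited by the authors as 2 tables of raw counts, for HA-positive and HA-negative nuclei, per the labels, with GRCm38 as the build per the submitters' processing notes. The aligner and counter were not given in the sources used here, nor was strandedness. Cells without a value were read as 0, 1 entry per table named no gene (0 counts) and was left out, and no count column was unused. Samples were grouped by title; for 3 mice the title number is 1 below that in the column name, and the descriptions tied them. Whether libraries were made in batches is not stated. Positions, exons and 3′ UTRs come from GENCODE by Ensembl identifier (41474 of 41549 matched).

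CPM used TMM factors over 28 libraries. Genes were tested with edgeR 4.0.16 in R 4.3.3 (quasi-likelihood, filterByExpr, TMM, robust, Benjamini-Hochberg adjusted p under 0.05, all genes). DESeq2 1.42.0, limma 3.58.1 (voom), no filter, library-size scaling, a mouse block, and libraries or mice left out were alternatives, and the fits were tested on simulated data. Libraries of a mouse share an animal. Their deviations from group means had a median r of 0.01 to 0.07 over 4 comparisons, with 0 to 2 of 7 pairs over 0.1. Counting error in genes with few counts also lowers this r, so it cannot show that the animal has no part. The 4 genes and all lists were chosen with earlier results of these data known. Named pathway genes are those called in a comparison plus a set named for their roles. Spon1, Clu, Slc32a1, Id2, Vip, Cck, Kit, Nos1 and the marker genes named at 0 counts were chosen after their values were seen. Likeness is the highest r, with 5 genes for Reln and 3 for each other. Counting SDs cover counting error only, and intervals of fold changes also the spread between libraries.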

Additional observations from a re-analysis of the deposited data

Results flagged for a closer look

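For the 4 genes and the pathway genes called above, the CPM of each group of 7 libraries was searched for a highest or lowest library far from the others, by a gap of over 0.568 of the group's range. For normally distributed values chance would give about 1 in 20 groups. Low counts and zeros depart from that, so the number found is not read as an excess. Of 52 groups 10 had such a library. Among the 4 genes these were Dab1 in the empty HA-positive library of mouse 22 (119 CPM), Lrp8 in that of mouse 21 (129.7 CPM) and Vldlr in the g4 HA-positive library of mouse 18 (25.8 CPM, the lowest). The libraries of mice 21 and 22 and that of mouse 18 were among those with under 10000 detected genes. Reln had no such library in any group.

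Among the pathway genes, the g4 HA-positive library of mouse 19, with the high microglia and oligodendrocyte sums, was highest for Selenop (60.1 CPM) and for Efnb3 (48.1 CPM). In the empty HA-positive group Selenop was highest in mouse 22 (34.96 CPM), Lrpap1 lowest in mouse 17 (0 CPM) and Pafah1b2 highest in mouse 21 (234 CPM). Efnb2 was highest in the g4 HA-positive library of mouse 23 (54.0 CPM), and Pafah1b2 in the g4 HA-negative library of mouse 17 (188 CPM).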

How the results depend on the processing

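Reln kept its sign in every alternative run for the fraction with empty (log2 fold change 0.76 to 0.97), the vectors in HA-positive nuclei (-0.90 to -0.64), the fraction with g4 (0.15 to 0.28) and the difference of vector effects (-0.79 to -0.61). Dab1, Lrp8 and Vldlr changed sign in some alternatives. Lrp8 between fractions with empty, at 0.21, kept its sign in 11 of 13 alternatives and went down to -0.11. Vldlr in the difference of vector effects, at -0.18, kept its sign in 13 of 14. Of the pathway calls, Apoe, Selenop, Efnb3 and Lrp1b with empty passed in every alternative run. With empty, genes called over all were 661 without a filter on low counts (233 higher, 428 lower) and 251 to 371 with each mouse left out, and pathway calls 5 to 8. With g4, genes over all were 259 with library-size scaling and 218 to 422 with each mouse left out. Pathway calls with g4 were 1 with library-size scaling, 3 without libraries under 10000 genes and 0 to 6 with each mouse left out (0 without mouse 21, 1 without 17, 20 or 22, 2 without 23), against 8 without the g4 HA-positive library of mouse 19. Between vectors in HA-positive nuclei, genes over all were 3, and 11 with DESeq2, 28 without a filter, 5 without the g4 HA-positive library of mouse 19, 0 without libraries under 10000 genes and 1 to 4 with each mouse left out (1 without mouse 18). In HA-negative nuclei DESeq2 called 1, and the difference of vector effects gave 3 without a filter. The causes were not tested. With the mouse as a replicate block, genes over all were 324 and 391 between fractions with empty and g4 and 1 between vectors in HA-positive nuclei, and pathway calls 7 and 6, with Akt1 and Lrpap1 lost with empty. Without a filter the median of all genes moved to -0.18 between fractions with empty and to 0.14 between vectors in HA-positive nuclei. Summing entries that share a gene symbol was not run, since no symbol repeats. The receptors and Dab1 had 9 to 93 counts per library.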
